A study of Homo sapiens with 12 samples.

Results

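The zinc finger genes described here are the 113 members of the numbered ZNF family that were expressed on 12 expression arrays of Ishikawa cells, a human endometrial adenocarcinoma line. A member has a symbol of ZNF and digits, with an optional final letter, and a mean of 7 or more on the log2 scale over the 12 arrays, read from its brightest probe set. Of 471 such symbols among 14884 named genes, 358 lay below that mean. The members were thus chosen by their mean level, which is a description only, and differences between arrays were left to examine. Just inside the threshold lay ZNF551 at 7.02, with ZNF331, ZNF33B and ZNF543 at 7.01 each, and just outside lay ZNF621 at 6.99, ZNF398 at 6.97, ZNF445 at 6.96 and ZNF714 at 6.94. The final letter of the rule also admits 2 pseudogenes, ZNF271P and ZNF767P. All 113 had a RefSeq entry, and 6 had more than 1 probe set.

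Each of 4 labelled groups has 3 arrays: control ERα(-), shMOF ERα(-), control ERα(+) and shMOF ERα(+). KAT8 encodes MOF, a histone acetyltransferase, shMOF names a short hairpin RNA against it, and ESR1 encodes the oestrogen receptor ERα. Nothing read here gives the hairpin's sequence, what separates ERα(-) from ERα(+), or whether replicates came from separate cultures, so p-values measure a spread between arrays that may be technical. KAT8 was not lower on the arrays labelled shMOF (log2 difference -0.02, 95% interval -0.29 to 0.26, in ERα(-), and 0.04, -0.23 to 0.31, in ERα(+)), and ESR1 differed between the ERα(+) and ERα(-) arrays by 0.18 ± 0.12 (SE) among controls and -0.15 ± 0.12 among shMOF arrays. The group names below are those of the labels. Comparisons that have a group in common share its arrays. The 9 measured epithelial markers of 10 had means between 6.46 and 11.5 on the log2 scale. The 3 measured stromal markers of 8 lay between 2.06 and 4.94 and the 4 endothelial of 5 between 3.83 and 4.51, while 1 of the 3 measured immune markers of 7 lay above 5.66, the median level of all genes. Among the 12, control ERα(+) replicate 3 and shMOF ERα(+) replicate 2 lay at opposite ends of the first principal component of all genes (-32.9 and 29.8), which held 36.8% of the variance. Over all genes, only 3 of the 12 arrays correlated most closely with another array of their own group, and the rest with an array of a different group.

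Zinc finger proteins of this family fold around zinc ions held by cysteine and histidine pairs, and strings of such fingers read DNA. Many carry a KRAB domain, which recruits the co-repressor TRIM28 and with it histone methyltransferases, and these proteins silence transposable elements and imprinted regions. Other members activate transcription, bind RNA, mature ribosomes or help build the mitotic spindle. Many KRAB genes lie in clusters on chromosome 19, where the family grew by tandem duplication. Of the 113 members, 51 (45.1%) lay on chromosome 19, against 48.0% of all 471 ZNF symbols and 7.26% of all named genes. Chromosomes 7, 1 and 6 held 8, 7 and 6. Near-identical paralogs can share hybridisation, and 18 members overlap another protein-coding gene in RefSeq, ZNF146 and ZNF106 among them, so a single member's value can hold signal from another gene.

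The members that carried the pattern described below are shown by the 250 bases before a RefSeq promoter start (GRCh38.p14), because genes that move together across arrays invite a look at their promoters. ZNF638 and ZNF106 had the highest correlation with the other members, ZNF282 and ZNF358 the lowest, and ZNF138 and ZNF121 had the smallest p-values. For ZNF358 that start lies inside the RefSeq gene span, and for the other 5 it is the outer end of the gene. Each is written 5′ to 3′ on the strand of its gene. Capitals mark matches, on either strand, to 5 motifs: the GC box GGGCGG, the ETS core CCGGAAG, ATGGCGGC of YY1 sites, TGCGCA of NRF1 sites and the TATA box TATAAA. Matches may overlap and each was counted.
ZNF638 (chr2:71331532-71331781, plus strand): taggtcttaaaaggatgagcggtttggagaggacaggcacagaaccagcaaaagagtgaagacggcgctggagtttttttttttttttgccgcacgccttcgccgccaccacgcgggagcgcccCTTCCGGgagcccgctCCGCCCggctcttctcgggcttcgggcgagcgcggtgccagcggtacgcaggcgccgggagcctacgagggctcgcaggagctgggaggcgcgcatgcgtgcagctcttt
ZNF106 (chr15:42491142-42491391, minus strand): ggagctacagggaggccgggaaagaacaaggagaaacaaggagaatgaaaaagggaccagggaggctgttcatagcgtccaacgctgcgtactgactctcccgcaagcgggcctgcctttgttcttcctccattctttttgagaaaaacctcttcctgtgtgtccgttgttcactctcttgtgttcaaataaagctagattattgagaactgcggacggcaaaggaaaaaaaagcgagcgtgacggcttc
ZNF282 (chr7:149195296-149195545, plus strand): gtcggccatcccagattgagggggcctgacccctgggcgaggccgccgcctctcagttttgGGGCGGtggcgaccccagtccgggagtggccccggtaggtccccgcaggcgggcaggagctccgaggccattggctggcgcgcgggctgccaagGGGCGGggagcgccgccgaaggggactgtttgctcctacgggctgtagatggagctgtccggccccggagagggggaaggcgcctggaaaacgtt
ZNF358 (chr19:7515853-7516102, plus strand): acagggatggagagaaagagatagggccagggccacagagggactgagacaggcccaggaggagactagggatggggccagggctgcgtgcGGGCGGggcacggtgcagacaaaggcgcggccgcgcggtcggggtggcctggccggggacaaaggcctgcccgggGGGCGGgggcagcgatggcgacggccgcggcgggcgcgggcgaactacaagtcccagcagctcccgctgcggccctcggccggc
ZNF138 (chr7:64794178-64794427, plus strand): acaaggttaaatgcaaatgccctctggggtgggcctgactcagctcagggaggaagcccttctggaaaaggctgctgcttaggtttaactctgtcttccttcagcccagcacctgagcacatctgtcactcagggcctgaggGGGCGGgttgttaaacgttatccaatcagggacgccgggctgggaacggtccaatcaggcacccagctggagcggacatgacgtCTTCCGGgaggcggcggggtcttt
ZNF121 (chr19:9584505-9584754, minus strand): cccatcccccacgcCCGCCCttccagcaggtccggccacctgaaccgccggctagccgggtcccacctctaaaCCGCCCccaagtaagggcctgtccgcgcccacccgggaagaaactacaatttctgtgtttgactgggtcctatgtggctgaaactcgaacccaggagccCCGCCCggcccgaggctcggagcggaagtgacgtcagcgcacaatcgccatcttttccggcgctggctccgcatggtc

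The promoters of the members varied in composition. These stretches ran from 49.6% G and C in ZNF106, which held 0 motif matches, to 74.4% in ZNF358 and 72.0% in ZNF282, each with 2 GC boxes. ZNF121 held 3 GC boxes, and ZNF638 and ZNF138 held 1 GC box and 1 ETS core each. Over the window of 300 bases that RefSeq promoters cover (250 before to 50 after the start), 98 members had an entry, and for 45 of these its start was the outer end of the gene. The ETS core was in 34.7% of them, against 22.3% of 3438 other genes with a mean of 7 or more and 10.7% of all 27305 promoters. The GC box was in 67.3%, against 74.4% and 44.6%. The TATA box was in 4.08%, against 4.57% and 12%, ATGGCGGC in 7.14%, against 8.52% and 3.19%, and TGCGCA in 14.3%, against 15.9% and 8.41%. The ETS core was in 36.0% of the 75 promoters of members that ran with the majority described next and in 30.4% of the 23 that ran against it. A match shows letters, not a bound factor.

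Across the 12 arrays most members moved along 1 axis, in 2 opposed sets. Of the 113, 84 had a correlation above 0 with the mean of the other members and 29 below 0. It was above 0.8 for 50 members and below -0.5 for 16. The first principal component of the members held 64.2% of their variance, and 63.3% was the like figure for the 4137 other genes with a mean of 7 or more. The balance of the 2 sets differed between the lists: the median correlation over the 6328 pairs of members was 0.28, with 62.3% of pairs above 0, whereas it was 0.01 with 50.6% above 0 over pairs of the other genes. These correlations describe 12 arrays of 1 cell line normalized together and carry no p-value. After each array's group mean was taken away, the median over member pairs was 0.23 and 83 members stayed above 0, so most of the co-variation was also seen between replicates of a group.

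**Figure D1:**
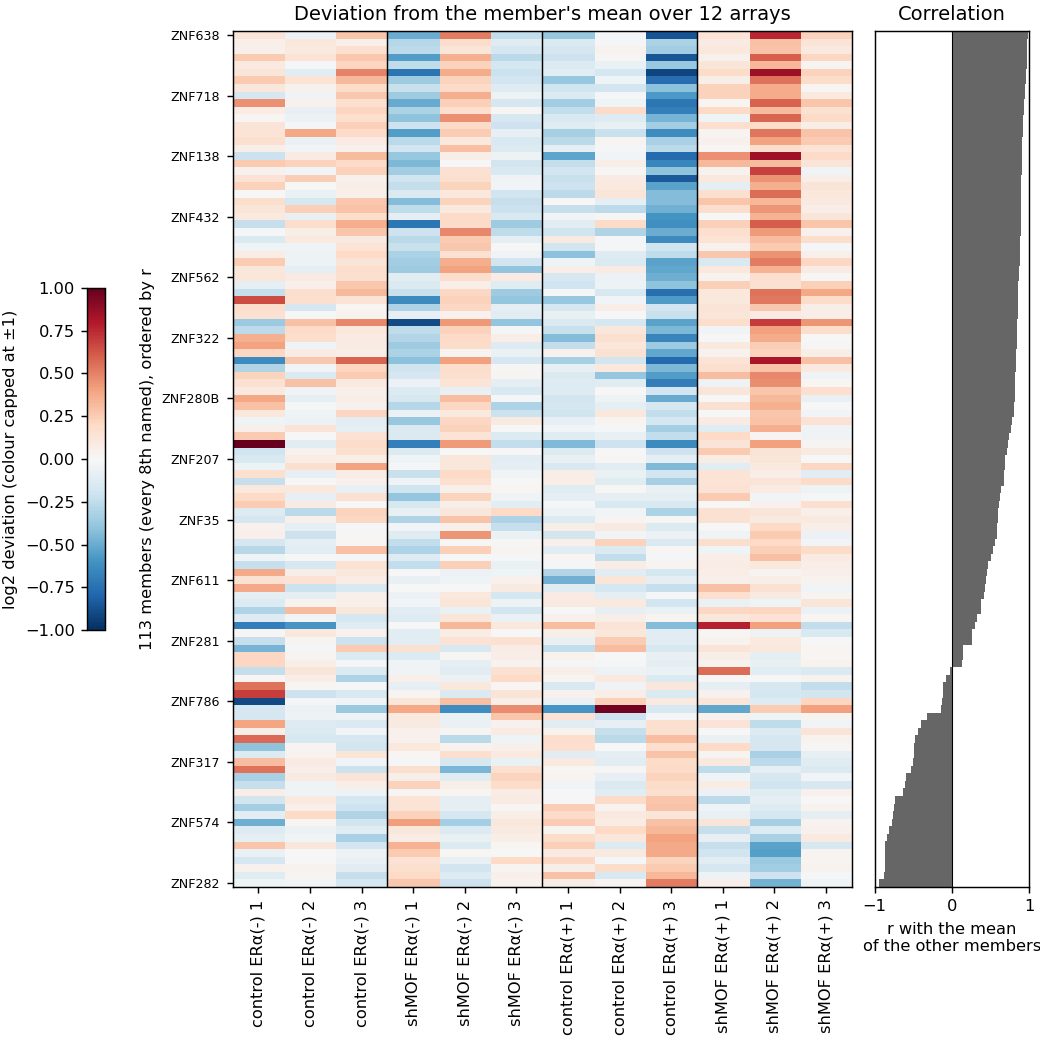
Each row is 1 of the 113 members, ordered from the highest to the lowest correlation with the mean of the other members (bars at the right), and each column is 1 of the 12 arrays, with colour for the log2 deviation from that member's own mean. The upper rows are mostly lowest on control ERα(+) replicate 3 and highest on shMOF ERα(+) replicate 2, and the lowest rows run the other way.

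ZNF638, an RNA- and DNA-binding protein that works with the HUSH complex in silencing retroviral DNA, followed the axis most closely (r = 0.98). Its log2 signal was 8.09, 7.90 and 8.24 in control ERα(-), 7.46, 8.47 and 7.71 in shMOF ERα(-), 7.58, 7.94 and 7.10 in control ERα(+), and 8.09, 8.71 and 8.19 in shMOF ERα(+), for replicates 1 to 3 in turn. The lowest and the highest array were control ERα(+) replicate 3 and shMOF ERα(+) replicate 2, and shMOF ERα(-) replicates 1 and 2 lay next to them on either side. ZNF106, ZNF24, a SCAN-domain factor, ZNF507 and ZNF652 followed at 0.97 each, and ZNF480 at 0.96. The closest pairs were ZNF146 with ZNF507 (r = 0.973), ZNF652 with ZNF638 (0.970), ZNF106 with ZNF24 (0.970), ZNF652 with ZNF266 (0.969) and ZNF638 with ZNF507 (0.967).

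ZNF282, a KRAB protein first described as a repressor of a retroviral promoter, ran most strongly against the others (r = -0.94). Its log2 signal was 7.43, 7.45 and 7.30 in control ERα(-), 7.75, 7.27 and 7.51 in shMOF ERα(-), 7.54, 7.5 and 7.99 in control ERα(+), and 7.52, 7.0 and 7.43 in shMOF ERα(+). Here control ERα(+) replicate 3 was highest and shMOF ERα(+) replicate 2 lowest. ZNF358 (r = -0.87), ZNF768 (-0.87), ZNF703 (-0.87), an oncogene of luminal breast cancer, ZNF71 (-0.87) and ZNF511 (-0.86) ran the same way. The most opposed pair was ZNF480 and ZNF282, at r = -0.955.

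Another 27 members had correlations between -0.5 and 0.5. ZNF114 (r = -0.14) had one of the widest ranges, 1.58 on the log2 scale, from 6.74 on shMOF ERα(-) replicate 2 to 8.32 on control ERα(+) replicate 2. ZNF676 (r = 0.30) ranged over 1.46, from 6.48 to 7.94, and ZNF786 (r = -0.12) over 1.21, with its lowest value, 6.16, on control ERα(-) replicate 1 and all others at 6.93 or more. Of the members outside these 27, ZNF292 (r = 0.72), a large nuclear protein whose gene is mutated in some tumours, had the widest range of all 113, 1.84, from 6.47 on shMOF ERα(-) replicate 1 to 8.30 on control ERα(-) replicate 1, with the next array at 7.58. The next widest ranges were those of ZNF480 (1.77), ZNF138 (1.62), ZNF638 (1.61), ZNF280C (1.6) and ZNF100 (1.6), with correlations from 0.83 to 0.98.

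The members' position on each array moved with the whole transcriptome. The median deviation of the members from their own means was 0.05, -0.002 and 0.07 log2 units in control ERα(-), -0.14, 0.12 and -0.04 in shMOF ERα(-), -0.10, -0.02 and -0.20 in control ERα(+), and 0.08, 0.20 and 0.04 in shMOF ERα(+), for replicates 1 to 3 in turn. All shMOF ERα(+) arrays lay above all control ERα(+) arrays, and the shMOF ERα(-) arrays reached from below to above all 3 control ERα(-) arrays. The first component of the members and that of all genes correlated at r = 0.995 over the 12 arrays. The median deviation of 49 ribosomal protein genes ran opposite to that of the members (r = -0.962), from -0.13 on shMOF ERα(+) replicate 2 to 0.13 on control ERα(+) replicate 3. The other genes with a mean of 7 or more stayed between -0.05 and 0.02. The part of this transcriptome-wide axis in the group differences was not tested beyond the values given beside them.

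**Figure D2:**
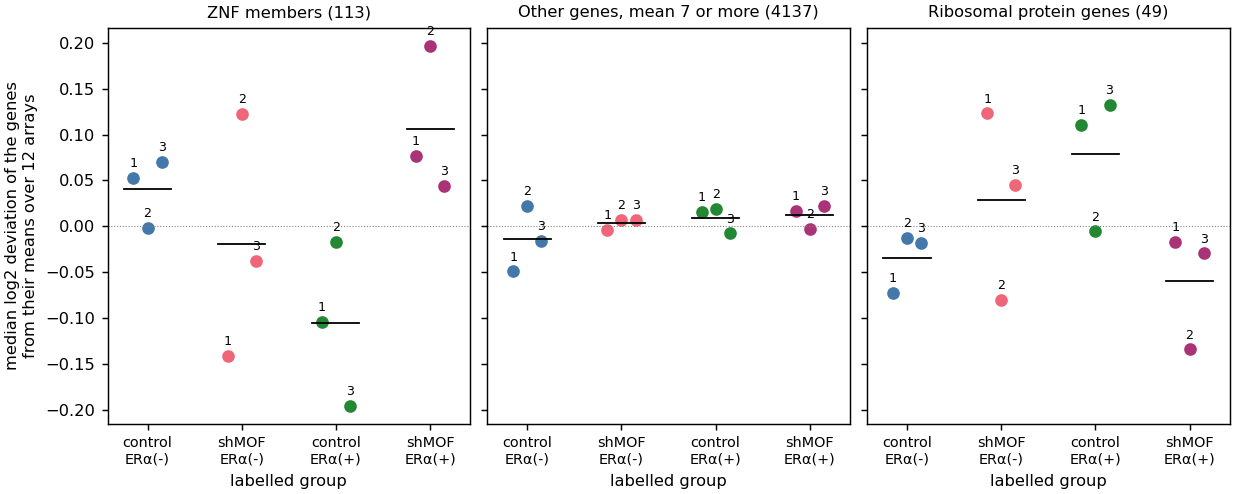
Each point is 1 array (replicate number above it) and gives the median log2 deviation of a gene set from its means over 12 arrays, by labelled group, with a line at the group mean. The members run from -0.20 to 0.20, the ribosomal protein genes run the other way, and the other genes of like level stay near 0.

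Longer genes more often followed the axis. The 84 members with a correlation above 0 had a median RefSeq gene length of 32.8 kb (quartiles 17.8 and 63.0) and the 29 below 0 had 18.3 kb (10.6 and 29.2). Their rank correlation with gene length was 0.41 across members, which are not independent replicates, and 0.46 across the other genes with a mean of 7 or more. With the G and C share of the promoter it was -0.24, at medians of 61.3% for 75 members above 0 and 67.0% for 23 below, and -0.12 among the other genes. On chromosome 19, 41 of 51 members had a correlation above 0, and elsewhere 43 of 62. The 23 pairs of members at most 100 kb apart had a median correlation of 0.59, against 0.33 for the 1148 pairs on chromosome 19 more than 1000 kb apart and 0.26 for pairs on different chromosomes. ZNF766 and ZNF480, which lie 1.12 kb apart, reached 0.91, and ZNF614 and ZNF432, 3.00 kb apart, 0.87. ZNF8 and ZNF544, 1.5 kb apart, were opposed at -0.66. These neighbours were named after their values were seen.

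**Figure D3:**
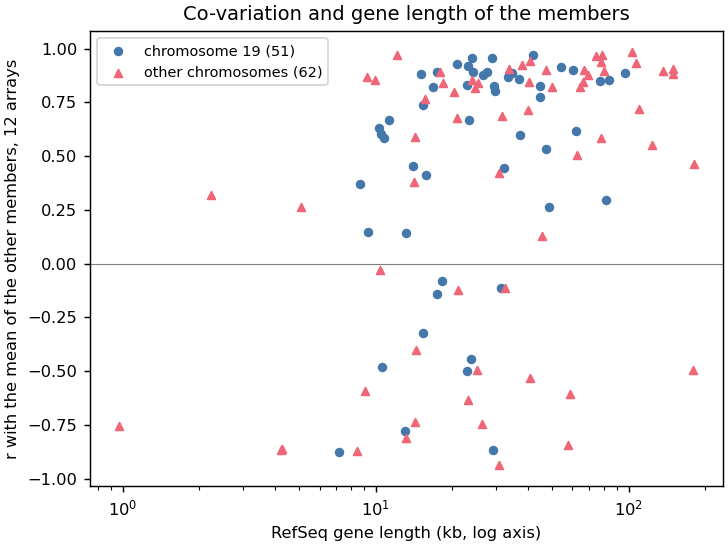
Each point is 1 member, with its RefSeq gene length in kb on a log axis against its correlation with the mean of the other members over 12 arrays, circles for chromosome 19 and triangles for other chromosomes. Members over about 60 kb lie mostly near the top, while the points below 0 are mostly shorter genes on either kind of chromosome.

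In ERα(+), most members were higher on the arrays labelled shMOF than on control arrays, but limma called 0 of 113 at an adjusted p below 0.05 over all genes (smallest 0.223), as it called 0 of 14884 genes (0%). The median log2 difference was 0.23, with 87 members above 0, against -0.04 for all genes and 0.004 for the other genes with a mean of 7 or more. At an unadjusted p below 0.05, 38 members were higher and 6 lower, where 10.2% and 8.51% of all genes were. Of the other genes with a mean of 7 or more, 18.8% were higher and 11.6% lower. Groups did not overlap for 49 members on the higher side and 8 on the lower, where 12.2% and 14.1% of all genes did so. The other genes with a mean of 7 or more did so in 21.0% and 19.7%. The 358 ZNF symbols below the threshold had a median of 0.14, with 80 higher and 13 lower at that p.

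ZNF138, a KRAB zinc finger gene on chromosome 7 (64794428 to 64860823, GRCh38.p14), differed most clearly there. Its log2 signal was 6.77, 7.27 and 6.52 on the control ERα(+) arrays and 7.75, 8.14 and 7.48 on the shMOF ERα(+) arrays, so the groups did not overlap. The log2 difference was 0.94 ± 0.22 (SE), or 1.92-fold, with a 95% interval from 0.48 to 1.4 (limma adjusted p = 0.223). ZNF121 (chromosome 19, 9560329 to 9584504) read 9.16, 9.14 and 8.92 in control ERα(+) and 9.57, 9.84 and 9.46 in shMOF ERα(+), a log2 difference of 0.55 ± 0.14 with no overlap. ZNF146, a protein made almost wholly of zinc fingers, read 8.61, 8.95 and 8.22 against 9.05, 9.54 and 9.17, a difference of 0.66 ± 0.20, again with no overlap. ZNF431 at 0.68 ± 0.19, ZNF33B at 0.61 ± 0.17, ZNF184 at 0.52 ± 0.15 and ZNF26 at 0.47 ± 0.14 were further members with no overlap.

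On the lower side in ERα(+) stood ZNF511 at -0.47 ± 0.18 (SE), ZNF71 at -0.42 ± 0.15, ZNF592 at -0.34 ± 0.14 and ZNF768 at -0.33 ± 0.13, all without overlap on the log2 scale, and ZNF512B at -0.30 ± 0.12 and ZNF703 at -0.29 ± 0.13, with overlap. ZNF592, a partner of ZNF687 and the chromatin reader ZMYND8, read 8.69, 8.62 and 8.91 in control ERα(+) and 8.42, 8.18 and 8.59 in shMOF ERα(+). Without shMOF ERα(+) replicate 2, ZNF71 was at -0.27 and ZNF703 at -0.18. Without control ERα(+) replicate 3 and shMOF ERα(+) replicate 2 together, the median of the members was 0.13 and 4 members were higher and 0 lower at an unadjusted p below 0.05. The share of all genes at that p was not counted in this fit, so the fall cannot be called particular to the members. After adjustment for the first component of all genes the median was 0.007 and both counts were 0. That component correlated at r = 0.995 with the members' own first component, so this median was all but bound to fall near 0. The same limit holds for each adjustment below. With array quality weights limma called 20 members, 19 of them higher, among 10.9% of all genes. In that fit the control ERα(+) mean rested mainly on replicate 1.

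The array means of the epithelial and of the immune marker lists did not overlap between these groups either. The array means of the 9 measured epithelial markers lay between 8.49 and 8.75 in shMOF ERα(+) and between 8.77 and 8.98 in control ERα(+), and between 8.60 and 8.90 in shMOF ERα(-) and 8.59 and 8.71 in control ERα(-). Those of the 3 measured immune markers lay between 4.46 and 4.55 in shMOF ERα(+) and 4.6 and 4.98 in control ERα(+), and between 4.41 and 4.85 in shMOF ERα(-) and 4.54 and 4.74 in control ERα(-). The myeloid marker CD68, which other cells also express in lysosomes, was at -0.58 ± 0.27 (SE) for shMOF in ERα(+). It was at 0.73 ± 0.27 between the control arrays and at -1.10 ± 0.38 for the interaction (limma adjusted p = 0.262, 0.337 and 0.219 in turn). CD14 and LYZ, the other immune markers measured, had means of 3.30 and 3.57. LYZ went the other way in each, at 0.13 ± 0.16, -0.19 ± 0.16 and 0.24 ± 0.22. CD14 was at -0.29 ± 0.16, -0.12 ± 0.16 and -0.09 ± 0.22 in the same order. Single epithelial markers went both ways for shMOF in ERα(+). ESRP1 was higher there at 0.10 ± 0.14 (SE), without overlap, and PAX8 at 0.03 ± 0.14. The other epithelial markers were below 0, from KRT18 at -0.43 ± 0.15 to EPCAM at -0.07 ± 0.10. The ranges of the 3 stromal and 4 endothelial markers overlapped between the ERα(+) groups. The part of these markers in the members' differences was not tested.

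**Figure D4:**
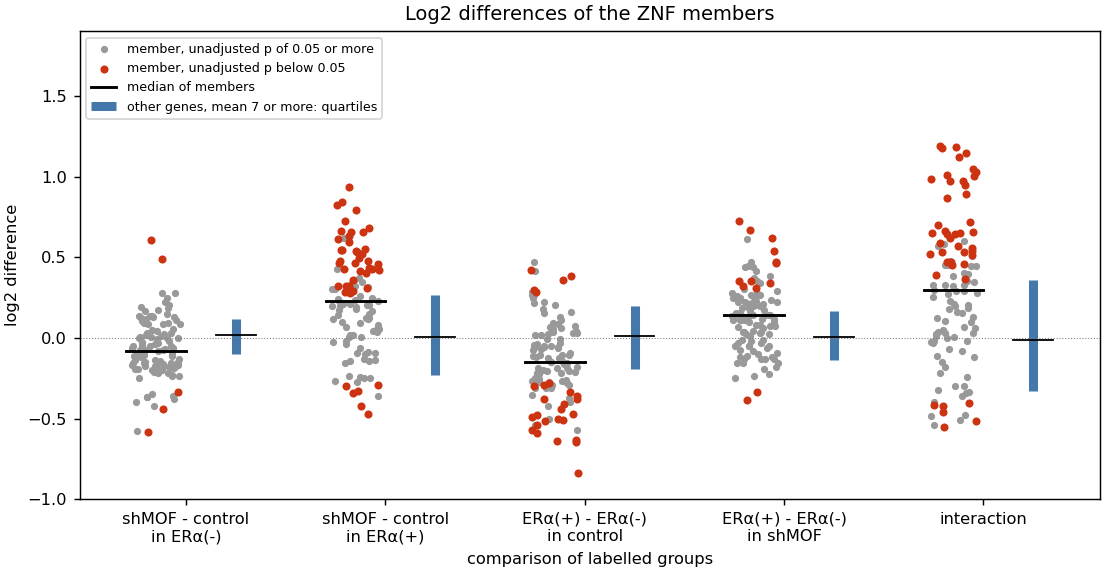
Each point is the log2 difference of 1 member in 1 of 5 comparisons (shMOF against control in ERα(-) and then in ERα(+), ERα(+) against ERα(-) among control and then among shMOF arrays, and the interaction), red where its unadjusted limma p is below 0.05, with a black line at the members' median and a blue bar for the quartiles of the 4137 other genes with a mean of 7 or more. The members' medians are -0.08, 0.23, -0.15, 0.14 and 0.30 from left to right, while the other genes' medians lie between -0.01 and 0.02.

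In ERα(-), the members leaned slightly the other way. The median log2 difference between shMOF and control arrays was -0.08 (38 of 113 above 0), against -0.003 for all genes, and limma called 0 members (smallest adjusted p = 0.953) and 0% of genes. At an unadjusted p below 0.05, 2 members were higher and 3 lower, near the 2.1% and 2.68% of all genes. Of the other genes with a mean of 7 or more, 1.47% were higher and 0.919% lower. Groups did not overlap for 3 members on the higher side and 6 on the lower, where 4.11% and 4.66% of all genes did so. The other genes with a mean of 7 or more did so in 3.58% and 2.18%. ZNF770 was at -0.58 ± 0.22 (SE), ZNF141 at -0.44 ± 0.17 and ZNF121 at -0.34 ± 0.14, and ZNF676 was at 0.61 ± 0.25 and ZNF786 at 0.49 ± 0.20. Without control ERα(-) replicate 1, ZNF786 was at 0.19. The 3 shMOF ERα(-) arrays differed widely: 27, 84 and 47 members lay above their own mean on replicates 1, 2 and 3. Without replicate 2 the median was -0.16, with 20 members lower at that p, and without replicate 1 it was -0.003, with 0 lower. Shares of all genes at that p were not counted in these fits. Adjusted for the first component of all genes, which the members' own first component followed at r = 0.995, the median was 0.009.

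Between the control arrays, most members were lower in ERα(+) than in ERα(-). The median log2 difference was -0.15, with 32 of 113 above 0, against -0.002 for all genes. limma called 0 members (smallest adjusted p = 0.333) and 0% of genes. At an unadjusted p below 0.05, 22 members were lower and 5 higher, where 6.38% and 6.34% of all genes were. Of the other genes with a mean of 7 or more, 8.68% were lower and 9.79% higher. Groups did not overlap for 26 members on the lower side and 7 on the higher, where 8.92% and 10.3% of all genes did so. The other genes with a mean of 7 or more did so in 11.8% and 16.6%. ZNF121 was at -0.54 ± 0.14 (SE), ZNF146 at -0.64 ± 0.20, ZNF770 at -0.64 ± 0.22, ZNF431 at -0.63 ± 0.19, ZNF141 at -0.51 ± 0.17 and ZNF460 at -0.38 ± 0.11, all without overlap. ZNF592 was at 0.38 ± 0.14, ZNF142 at 0.36 ± 0.13, ZNF574 at 0.42 ± 0.19, ZNF512B at 0.29 ± 0.12 and ZNF618 at 0.29 ± 0.13 on the log2 scale. Without control ERα(-) replicate 1, ZNF618 was at 0.19. Without control ERα(+) replicate 3, ZNF141 was at -0.32, the median was -0.09 and 4 members were lower at that p. How many of all genes were lower at that p without this array was not counted. Adjusted for the first component, which the members' own first component followed at r = 0.995, the median was -0.006, with 2 lower and 3 higher.

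Between the shMOF arrays, members were more often higher in ERα(+). The median log2 difference was 0.14, with 82 of 113 above 0, against -0.03 for all genes. limma called 0 members (smallest adjusted p = 0.746) and 0% of genes. At an unadjusted p below 0.05, 11 members were higher and 2 lower, where 2.52% and 2.81% of all genes were. Of the other genes with a mean of 7 or more, 1.57% were higher and 0.991% lower. Groups did not overlap for 12 members on the higher side and 2 on the lower, where 3.8% and 5.7% of all genes did so. The other genes with a mean of 7 or more did so in 3.67% and 2.68%. ZNF280C was at 0.73 ± 0.29 (SE), ZNF93 at 0.67 ± 0.24, ZNF138 at 0.62 ± 0.22, ZNF141 at 0.47 ± 0.17, ZNF121 at 0.35 ± 0.14 and ZNF844 at 0.31 ± 0.11. ZNF511 was at -0.39 ± 0.18 and ZNF71 at -0.33 ± 0.15. Without shMOF ERα(-) replicate 1, ZNF280C was at 0.42 and ZNF511 at -0.25, and without shMOF ERα(+) replicate 2, ZNF71 was at -0.18. Without shMOF ERα(-) replicate 2 the count on the higher side was 36, and without replicate 1 it was 1, while it was 3 without control ERα(+) replicate 3 and shMOF ERα(+) replicate 2. No share of all genes was counted in these fits, so these changes cannot be called particular to the members. Adjusted for the first component, which the members' own first component followed at r = 0.995, the median was 0.01, with 1 higher and 0 lower. Array quality weights called 23 members, 22 of them higher, among 12.9% of all genes. In that fit the shMOF ERα(-) mean rested mainly on replicate 3.

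The interaction asks whether the shMOF difference depends on the ERα label. Its median over the members was 0.30 on the log2 scale (83 of 113 above 0), against -0.03 for all genes. The 358 ZNF symbols below the threshold had a median of 0.16. The 24 genes of other C2H2 zinc finger families, listed below, had 0.40, with 22 above 0. limma called 0 members (smallest adjusted p = 0.182) and 0% of genes. At an unadjusted p below 0.05, 38 members were higher and 6 lower, where 9.35% and 8.69% of all genes were. Of the other genes with a mean of 7 or more, 16.3% were higher and 13.9% lower. ZNF121 was at 0.89 ± 0.19 (SE), ZNF770 at 1.18 ± 0.31, ZNF138 at 1.12 ± 0.30, ZNF431 at 1.05 ± 0.27, ZNF146 at 1.01 ± 0.28 and ZNF141 at 0.97 ± 0.24. ZNF71 was at -0.55 ± 0.21, ZNF592 at -0.51 ± 0.19, ZNF703 at -0.46 ± 0.19, ZNF512B at -0.42 ± 0.17, ZNF142 at -0.42 ± 0.18 and ZNF622 at -0.41 ± 0.18.  Without shMOF ERα(-) replicate 2 limma called 12 members, all higher, among 3.83% of all genes. Without control ERα(+) replicate 3 and shMOF ERα(+) replicate 2 together the median was 0.18, with 11 higher and 0 lower at that p. Adjusted for the first component, which the members' own first component followed at r = 0.995, the median was 0.02, with 2 and 0. Shares of all genes at that p were not counted in either fit. Array quality weights called 41 members, 38 of them higher, among 21.9% of all genes. In that fit the shMOF ERα(-) mean rested mainly on replicate 3, and the control ERα(+) mean on replicate 1.

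In 4 members the shMOF arrays lay wholly below the control arrays in ERα(-) and wholly above them in ERα(+): ZNF121, ZNF141, ZNF460 and ZNF844. The share of all genes with this pattern was not counted, so it cannot be called particular to the members. ZNF460, a zinc finger gene on chromosome 19, had log2 signals of 9.15, 8.83 and 8.88 in control ERα(-), 8.77, 8.71 and 8.73 in shMOF ERα(-), 8.48, 8.66 and 8.60 in control ERα(+), and 8.84, 8.80 and 8.83 in shMOF ERα(+). Its gaps were narrow and its interaction was 0.46 ± 0.16 (SE, limma adjusted p = 0.223). ZNF844, also on chromosome 19, read 7.5, 7.37 and 7.46, then 7.27, 7.34 and 7.25, then 7.28, 7.41 and 7.22, then 7.53, 7.68 and 7.57 in the same order, with an interaction of 0.45 ± 0.15 (adjusted p = 0.219). Both differ from ZNF638 in that shMOF ERα(-) replicate 2 stayed below the control arrays. ZNF770 had an interaction of 1.18, and its log2 signals were 9.15, 8.66 and 8.63 in control ERα(-), 7.86, 8.73 and 8.12 in shMOF ERα(-), 8.12, 8.47 and 7.93 in control ERα(+), and 8.61, 9.02 and 8.68 in shMOF ERα(+). Here the ERα(-) groups overlapped through shMOF replicate 2, and the ERα(+) groups did not overlap. ZNF71, with the lowest interaction, read 7.0, 7.07 and 7.02, then 7.33, 7.08 and 7.07, then 7.15, 7.16 and 7.44, then 6.87, 6.52 and 7.10, so its control ERα(+) arrays lay above both other sets they were compared with.

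**Figure D5:**
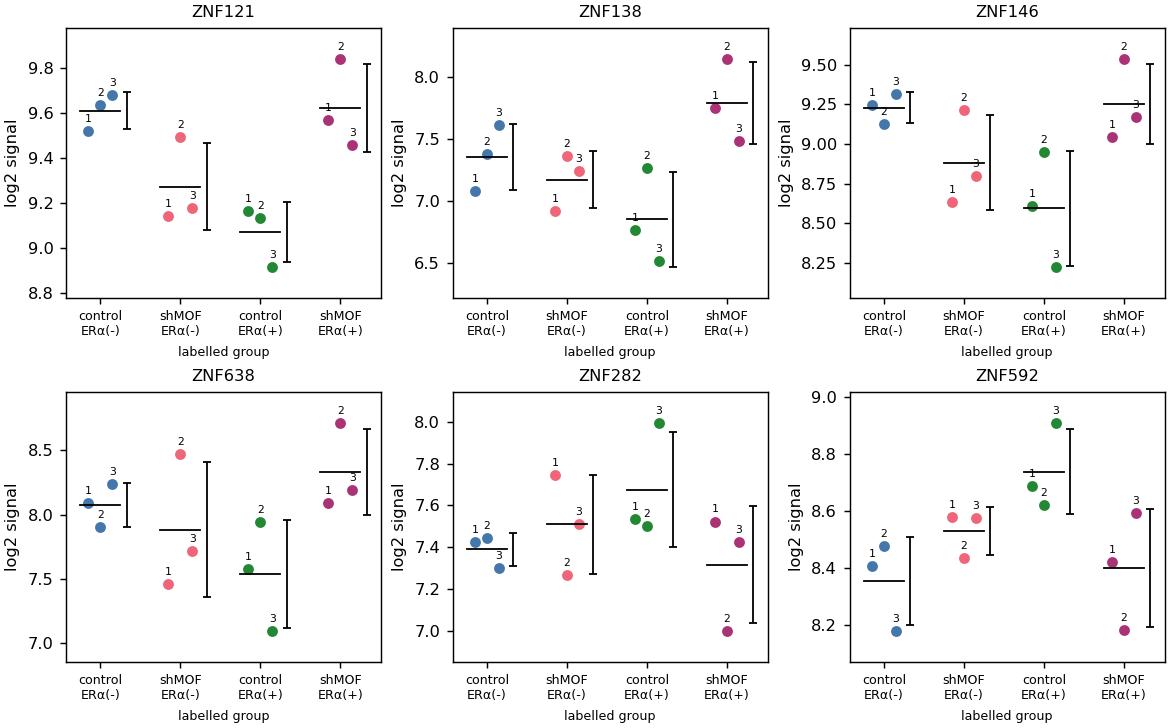
Each panel gives the log2 signal of 1 member on the 12 arrays by labelled group (replicate number above each point), with a line at the group mean and a bar of 1 SD to either side (n = 3). ZNF121, ZNF138, ZNF146 and ZNF638 have their highest point on shMOF ERα(+) replicate 2 and their lowest on control ERα(+) replicate 3, and ZNF282 has its highest and lowest the other way round. ZNF592 is highest on control ERα(+) replicate 3, with its lowest values on control ERα(-) replicate 3 and shMOF ERα(+) replicate 2, both 8.18.

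Members with known roles as transcription and chromatin factors lay on both sides of 0. Of 10 such members from a list of 18, 3 were higher and 2 lower in shMOF ERα(+) at an unadjusted p below 0.05, where 10.2% and 8.51% of all genes and 38 and 6 of the 113 members were, and their median was 0.05, against -0.04 for all genes. ZNF644, a partner of the histone methyltransferases G9a and GLP, was at 0.66 ± 0.22 (SE), ZNF148, which binds GC-rich promoters, at 0.42 ± 0.14 and ZNF24 at 0.32 ± 0.13. ZNF592 and ZNF703 were the lower ones. ZNF217, a co-repressor amplified in breast cancer, was at 0.31 ± 0.15, ZNF532 at 0.07 ± 0.13, ZNF281 at 0.02 ± 0.13, ZNF410, an activator of CHD4, at 0.04 ± 0.11, and ZNF384, a partner in leukaemia gene fusions, at -0.06 ± 0.11. In the other comparisons of 2 groups, ZNF644 was at -0.37 ± 0.22 for shMOF in ERα(-) at -0.59 ± 0.22 for ERα(+) against ERα(-) among the control arrays and at 0.44 ± 0.22 among the shMOF arrays.

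Members that act on RNA, ribosomes, the spindle or other proteins had a median log2 difference of 0.22 in shMOF ERα(+) (10 of a list of 12 expressed). At that p, 10.2% and 8.51% of all genes and 18.8% and 11.6% of the other genes with a mean of 7 or more were higher and lower. Among these 10 members, 3 were higher and 0 lower. Those were ZNF638 at 0.79 ± 0.26 (SE), ZNF451, a SUMO ligase, at 0.53 ± 0.20, and ZNF106 at 0.32 ± 0.14. ZNF326, of a complex that links transcript elongation and splicing, was at 0.37 ± 0.18 and ZNF277 at 0.34 ± 0.18. The maturation factors of the large ribosomal subunit stood on the other side, ZNF622 at -0.27 ± 0.13 and ZNF593 at -0.25 ± 0.14, and ZNF346, which binds double-stranded RNA, was at -0.10 ± 0.13. ZNF207, which loads a checkpoint protein at kinetochores, was at 0.11 ± 0.11, with a range of only 0.27 over the 12 arrays, and ZNF830 was at 0.05 ± 0.11.

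Of 9 KRAB genes listed for their known targets, ZNF93 and ZNF141 were expressed. ZNF93, which represses LINE elements, read 7.40, 7.80 and 7.99 in control ERα(-), 6.90, 7.82 and 7.28 in shMOF ERα(-), 7.52, 7.82 and 7.02 in control ERα(+), and 7.87, 8.23 and 7.90 in shMOF ERα(+). The shMOF ERα(+) arrays were higher than the control ERα(+) arrays by 0.55 ± 0.24 (SE) on the log2 scale without overlap. ZNF141 read 7.75, 7.72 and 7.68, then 7.04, 7.49 and 7.30, then 7.25, 7.55 and 6.84, then 7.81, 7.81 and 7.62 in the same order of groups. Its shMOF difference was 0.54 ± 0.17 in ERα(+) and -0.44 ± 0.17 in ERα(-), with no overlap in either.

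The co-repressors through which KRAB proteins act had a median log2 difference of 0.01 in shMOF ERα(+), against -0.04 for all genes. Of 21 measured genes of a list of 27, 2 were higher and 3 lower at an unadjusted p below 0.05, which is near the 10.2% and 8.51% of all genes. TRIM28, the protein that KRAB domains bind, read 10.2, 10.1 and 10.4 in control ERα(+) and 9.98, 9.42 and 9.87 in shMOF ERα(+), a difference of -0.48 ± 0.17 (SE). SUV39H1, a histone methyltransferase of heterochromatin, was at -0.58 ± 0.14, UHRF1, which brings DNMT1 to newly copied DNA, at -0.46 ± 0.16 and ATF7IP, the partner of SETDB1, at 0.44 ± 0.20 (limma adjusted p = 0.223 for the first 3 of these 4 and 0.260 for ATF7IP). Without shMOF ERα(+) replicate 2, TRIM28 was at -0.31 and UHRF1 at -0.28. Adjusted for the first component of all genes, TRIM28 was at -0.04, UHRF1 at -0.06, SUV39H1 at -0.31 and ATF7IP at -0.10. Between the control arrays TRIM28 was at 0.38 ± 0.17 and SUV39H1 at 0.50 ± 0.14. In other families of C2H2 zinc finger genes (ZSCAN, ZKSCAN, ZBTB, ZFP, ZIM and KLF), 24 genes had a mean of 7 or more. Their median was 0.23 in shMOF ERα(+), with 8 higher and 0 lower at that p. There 10.2% and 8.51% of all genes were, and 18.8% and 11.6% of all non-members with a mean of 7 or more. In shMOF ERα(-) their median was -0.16, with 1 higher and 2 lower, where 2.1% and 2.68% of all genes were. For ERα(+) against ERα(-) their median was -0.28 among the control arrays and 0.11 among the shMOF arrays. The ZNF symbols below the threshold were at -0.08 and 0.09 in those comparisons.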

How the data were processed

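Total RNA was prepared with Trizol and hybridised after biotin labelling to 12 arrays, 3 for each of 4 labelled groups, as the labels' protocols say. The authors deposited log2 signals. Their processing notes, per the submitters, name RMA and Expression Console (version 1.4.1). RMA equalises arrays and can compress dim transcripts. Array medians lay between 4.53 and 4.59, and 3 arrays a group limit the precision. Of 53617 probe sets, 16098 had 1 gene symbol in the platform annotation. The brightest stood for each gene, and coordinates and promoters are those of RefSeq (GRCh38.p14).

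A mean per group was fitted with limma 3.58.1 (R 4.3.3, lmFit and eBayes, two-sided, Benjamini-Hochberg over 14884 genes, called below 0.05). The code was also run on simulated arrays with noise independent between genes. They lack the axis shared by these arrays, so that run says nothing about its effect on the fit. The exact test of 3 against 3 arrays cannot go below p = 0.1. Lists have counts and medians only. Shares of all genes at an unadjusted p below 0.05 were counted only in the fit with no alternative applied. Named are members by level, by range, by correlation, by smallest p in a comparison (up to 6 a direction) and by role, and up to 4 co-repressors a comparison by p. The members and lists were chosen with earlier results of these data known. Alternatives covered probe sets, dim genes, normalization, variance model, array weights, samples, blocks and the threshold of 7 (6.5 and 7.5).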

Additional observations from a re-analysis of the deposited data

How the results depend on the processing

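Direction and calls were recomputed under 25 alternatives for each comparison of 2 groups. Values below are in the order of the plot of all differences: the shMOF difference in ERα(-) and then in ERα(+), the ERα difference among control and then among shMOF arrays, and the interaction. The members' medians moved most after adjustment for the first principal component of all genes, added after values were seen: 0.0095, which reversed, 0.0070, -0.0061, 0.014 and 0.018, with ATF7IP at -0.10 in shMOF ERα(+). That component separates the ERα(+) groups and also the control groups, so it takes out part of those comparisons. It also correlated at r = 0.995 with the members' own first component, so medians near 0 were all but fixed in advance. Without control ERα(+) replicate 3 and shMOF ERα(+) replicate 2 together, also added, the median of the shMOF difference in ERα(+) was 0.13 and that of the interaction 0.18. Members with a mean of 7.5 or more had an interaction median of 0.40. Array quality weights called 3, 20, 3, 23 and 41 members, and 645, 1629, 217, 1918 and 3258 genes. These weights ran from 0.359 on shMOF ERα(-) replicate 2 to 8.86 on replicate 3. The other alternatives with all arrays called 0 members.

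With 1 array left out, medians ran from -0.16 to -0.003, 0.17 to 0.30, -0.20 to -0.09, 0.09 to 0.22, and 0.22 to 0.35. Member calls stayed at 0 in the comparisons of 2 groups and ran from 0 to 12 for the interaction. At an unadjusted p below 0.05 the members higher in shMOF ERα(+) numbered 12 to 46, the lowest without control ERα(+) replicate 3. The share of all genes that did so in each of these fits was not counted. Median pairwise correlation ran from 0.22 to 0.34, was 0.17 for members with a mean of 6.5 or more and 0.47 for 7.5 or more. The cause of these changes was not tested. Of 1548 recomputed differences of named genes, 1508 kept direction and call, 39 became called and 1 reversed. The count of 1508 was partly fixed in advance. A change of error model alone, or leaving out an array outside the 2 groups compared, keeps the difference as it was. No named gene was called in the main fit, so a kept call means still not called.

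Every group holds each replicate number, so a block on that number cannot change a group difference, only its error. With it the medians were therefore the same, -0.08, 0.23, -0.15, 0.14 and 0.30, and 0 members were called. The arrays share only a number. Deviations of same-numbered arrays of different groups correlated at r of -0.18 to 0.45, over 0.1 in 5 of 18 pairs. Those of differently numbered arrays did so at -0.42 to 0.37, over 0.1 in 10 of 36 pairs.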
